A study of Homo sapiens with 8 samples.

Results

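RNA levels were compared between IMR90 cells exposed to Nutlin-3a for 9 h and cells given DMSO, the solvent control. These were 4 of the 8 libraries of a time course, chosen by their labels as the 2 libraries of the 9 h group and the 2 of the DMSO group, and 14074 of the 18216 genes in the deposited table reached a value of 10 in 2 or more libraries and were tested. IMR90 is a line of normal human lung fibroblasts. All groups were at passage 28, were kept in DMEM plus 10% serum with 3% O2 and 5% CO2, were plated at 300K cells per mL the day before the addition, and yielded polyA RNA. The Nutlin-3a groups received 3 µg/mL for 6, 9 or 12 h. Since the sources used here do not give the culture time of the DMSO group, exposure to Nutlin-3a and time in culture cannot be told apart. All samples come from this 1 line, and no cells without p53 were among them. Nor do they say whether replicates were separate cultures, and a p-value then reflects only how these samples vary, a spread that may be technical.

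p53 is a transcription factor that is held at a low level by MDM2, a ubiquitin ligase that binds it and marks it for destruction. Nutlin-3a occupies the pocket of MDM2 into which p53 fits and so frees p53 without damaging DNA. Freed p53 activates genes that stop the cell cycle, prepare cell death, repair DNA and restrain p53 itself. Its target CDKN1A encodes p21, an inhibitor of cyclin-dependent kinases, which keeps RB-family proteins active. Genes driven by E2F factors and genes bound by the DREAM and MuvB complexes are then shut down.

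Levels are normalized counts, which are reads divided by a size factor of each library, and compare a gene with itself across libraries but not with other genes, since gene length is not taken into account. Changes are on the log2(normalized count + 1) scale with their standard error (±) from a limma fit of n = 2 libraries per group, and understate changes of genes with low counts. A gene is said to have risen or fallen where its Benjamini-Hochberg adjusted p was below 0.05. Depth was 27.7 and 30.02 M gene reads (M, 1e6 reads) in the 9 h libraries and 27.9 and 25.3 M in DMSO, and 3 reads correspond to a normalized count between 2.74 and 3.22 in these 4 libraries. Replicates differed more in DMSO than at 9 h, where the SD of their log2 difference over 9568 genes was 0.147 and 0.0862.

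At 9 h 2273 genes had risen, which is 16.2% of those tested, and 2691 had fallen, which is 19.1%. Most of these changes were small. Of the genes that rose, 1759 (77.4%) changed less than 1.5-fold, as did 1879 (69.8%) of those that fell, and the median log2 change was 0.32 and −0.38 in these sets against 0.01 for all genes tested. Changes reached 2-fold in 210 of the rising genes (1.49% of those tested) and in 380 of the falling ones (2.7%). The order turned at the far end, where 47 genes rose and 39 fell at least 4-fold, and 19 rose and 4 fell at least 8-fold. Of all genes tested, whether called or not, 115 reached a value of 10 in both 9 h libraries and in neither DMSO library, and 63 did the reverse. Without 9 h replicate 1 the number of rising genes was 1419, and without replicate 2 it was 1430. Sensitivity also varied with the level, since 6.46% of the 2616 genes with a mean under 50 rose and 3.48% fell, against 26.2% and 20.6% of the 971 genes with a mean of 5000 or more.

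**Figure D1:**
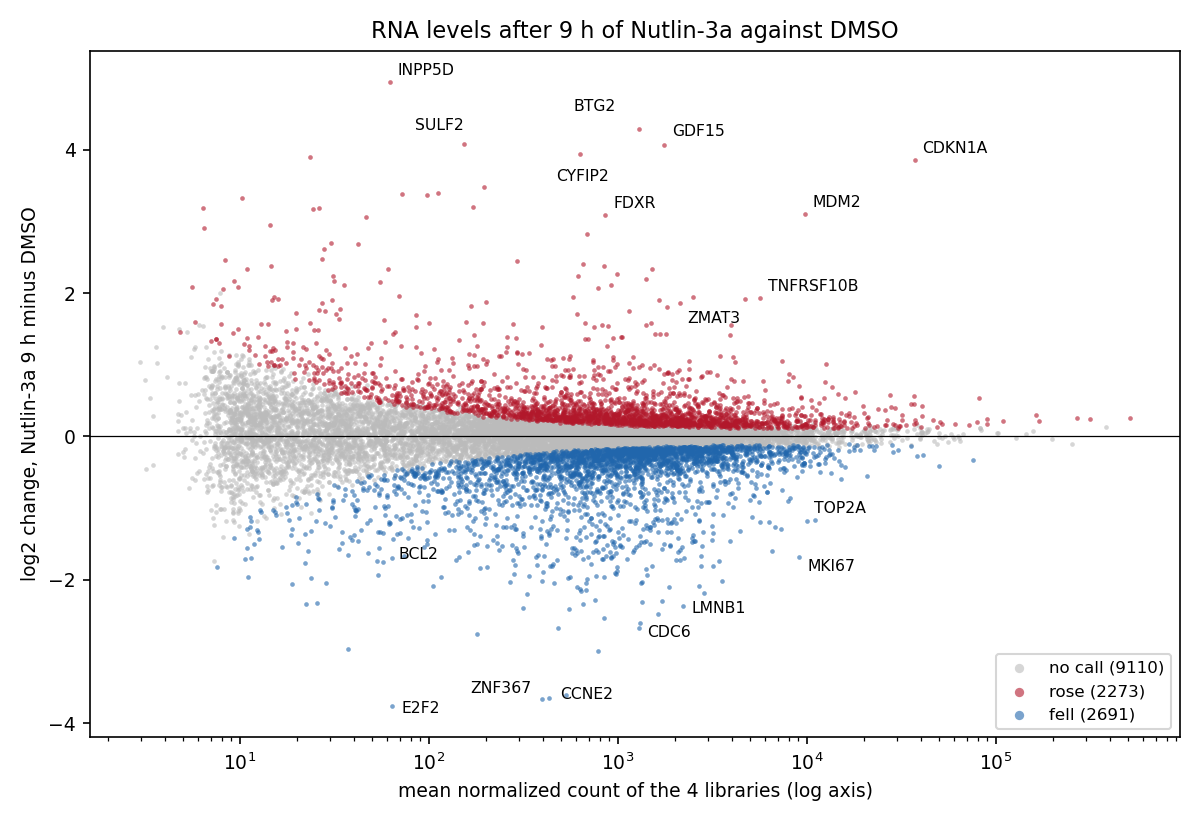
Each point is a gene, placed by the mean normalized count of the 4 libraries (log axis) and its log2 change at 9 h against DMSO, with the 2273 genes that rose in red, the 2691 that fell in blue and the rest in grey. The smallest called changes lie at high levels, INPP5D, BTG2, GDF15, SULF2 and CDKN1A are labelled at the upper edge, and E2F2, ZNF367 and CCNE2 at the lower.

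Of the 15 largest increases named by the rule on size, 14 were on one of the p53 lists used here. The lists were chosen with earlier results of these data known, so this overlap is not independent support. CDKN1A, the p21 gene, rose in both libraries. Its normalized count was 4954 and 4670.0 in the DMSO libraries and 68941 and 69997 in the 9 h libraries, a 14.4-fold difference of means (log2 3.85 ± 0.04). BTG2, an antiproliferative gene linked to mRNA turnover, measured 127 and 121 in DMSO and 2372 and 2541 at 9 h (4.29 ± 0.06). Both genes were thus far above the DMSO libraries in each 9 h library. GDF15, a secreted stress cytokine of the TGF-beta family, went from 206 and 186 to 3247 and 3370.0 (4.07 ± 0.06). CYFIP2, a component of the WAVE complex that regulates actin, went from 69.4 and 82.7 to 1198 and 1164 (3.94 ± 0.09). SULF2, which trims sulfate groups from heparan sulfate outside the cell, went from 18.6 and 13.97 to 287 and 291 (4.08 ± 0.14). INPP5D, a phosphatase of inositol lipids best known from blood cells, had the largest fitted change, 4.95 ± 0.24. Its DMSO values of 1.95 and 4.30 are near the value of 3 reads, so this size depends on the pseudocount, while both 9 h values, 122 and 119.7, are well above it.

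The remaining large increases ran from FDXR, a mitochondrial reductase, at 172 and 187 in DMSO and 1503 and 1570.3 at 9 h (3.09 ± 0.07), to genes that were scarce in DMSO. RRAD, a small GTPase, measured 18.6 and 18.3 in DMSO and 205 and 203 at 9 h (3.40 ± 0.14). WDR63 went from 35.2 and 27.9 to 361 and 357 and VWCE from 10.8 and 12.9 to 134 and 131. ACER2, a ceramidase of the Golgi, measured 23.5 and 45.1 in DMSO, 1 of 12 genes with a mean of at least 200 whose DMSO libraries differed more than 1.5-fold, and 321 and 294 at 9 h (3.20 ± 0.19). In every one of these the lowest 9 h value lay above the highest DMSO value, which the naming rule required. Such a lack of overlap was shared by 32.2% of all genes tested in this direction and by 31.9% in the other. FAM198B, 177 and 161 in DMSO and 1136 and 1262 at 9 h (2.82 ± 0.07), was the single gene of the 15 that was on no p53 list.

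**Figure D2:**
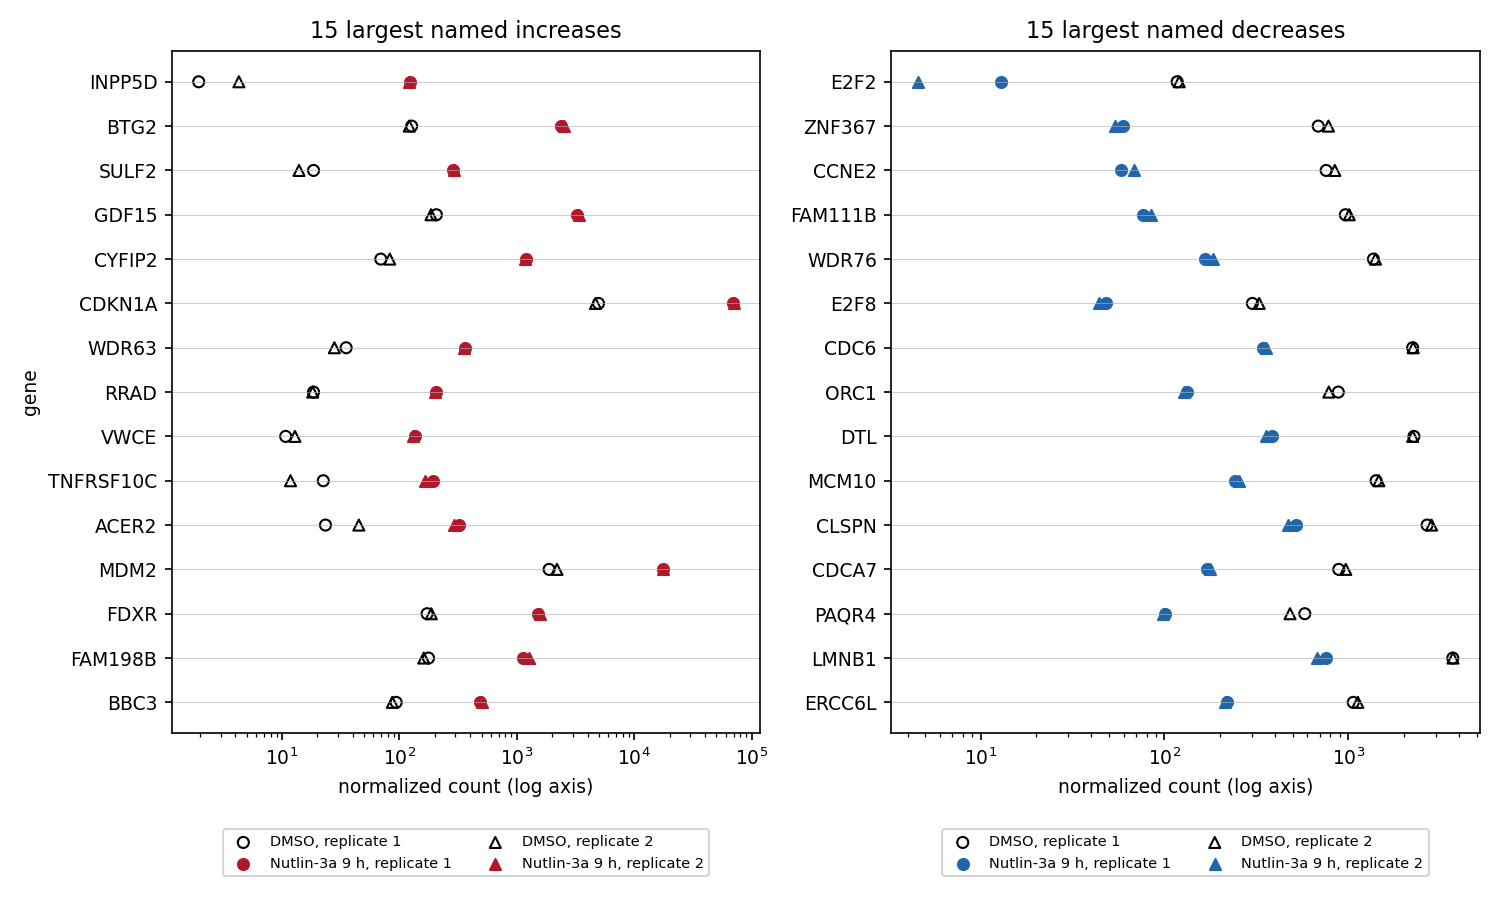
Normalized counts (log axis) of the 15 largest increases and the 15 largest decreases by the naming rule, with open symbols for DMSO, filled symbols for Nutlin-3a 9 h, circles for replicate 1 and triangles for replicate 2. The groups do not overlap in any of the 30 genes, which the rule required, and CDKN1A reaches 69997 while INPP5D starts near the value of 3 reads.

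In the list of the p53 feedback circuit, 6 of 13 genes rose and 3 fell (median log2 change 0.24), against 16.2% and 19.1% over all genes tested. MDM2 measured 1882 and 2196 in DMSO and 17498 and 17468 at 9 h, 8.58-fold more (log2 3.10 ± 0.06). Both 9 h values lay far above both DMSO values. Other feedback genes rose as well. PPM1D, a phosphatase that switches off p53 signalling, rose by 1.04 ± 0.06, and CCNG1, a cyclin that recruits a phosphatase to MDM2, by 1.42 ± 0.05. TP53INP1, a p53 cofactor with a role in autophagy, rose by 2.33 ± 0.07, TRIAP1, a survival factor, by 1.55 ± 0.08, and ZNF385A, a zinc finger protein that binds p53, by 1.39 ± 0.10. USP7, which removes ubiquitin from MDM2 and p53, fell (−0.15 ± 0.05), and SIAH1, a ubiquitin ligase, (−0.34 ± 0.11). Both of these calls are weak. That of USP7 was lost without DMSO replicate 1 or 9 h replicate 2, that of SIAH1 without DMSO replicate 2 or either 9 h replicate, and without 9 h replicate 2 only 1 member of the list fell. USP7 was also not called by limma without a trend or with only the 2 groups compared, nor SIAH1 by DESeq2 or in the authors' deposited tests.

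Targets that restrain proliferation rose in 11 of 17 cases and fell in 1 (median 0.97). Besides CDKN1A and BTG2 these included SESN1 and SESN2, stress sensors that restrain mTORC1. SESN1 measured 263 and 276 in DMSO and 1365 and 1461 at 9 h (2.39 ± 0.07), and SESN2 537 and 509 and 1772 and 1764 (1.76 ± 0.06). ZMAT3, an RNA-binding protein, rose by 1.92 ± 0.07 and PHLDA3, which competes with AKT for membrane lipids, by 1.56 ± 0.05. The member that fell was CDKN1B, which encodes p27, another CDK inhibitor. It measured 1031 and 1090.4 in DMSO and 661 and 692 at 9 h (−0.65 ± 0.07), so the CDK inhibitor genes CDKN1A and CDKN1B went opposite ways in the same libraries.

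Targets in cell death rose in 15 of 20 cases (median 1.01). The receptors of the TRAIL group and FAS were among them. TNFRSF10B, which encodes the receptor DR5, measured 2343 and 2387 in DMSO and 8914 and 9092 at 9 h (1.93 ± 0.04), and FAS 918 and 922 and 3376 and 3324 (1.86 ± 0.05). TNFRSF10C, a TRAIL receptor without a death domain, went from 22.5 and 11.8 to 192 and 166 (3.37 ± 0.20). BBC3, which encodes the BH3-only protein PUMA, measured 93.8 and 87.02 in DMSO and 488 and 503 at 9 h (2.44 ± 0.09). EDA2R, a receptor for ectodysplasin, rose by 2.07 ± 0.06, SPATA18, a factor of mitochondrial quality control, by 2.41 ± 0.08, and PIDD1, the scaffold of the caspase-2 complex, by 2.24 ± 0.08. CASP8, the initiator caspase of death receptors, was called against the majority at −0.27 ± 0.10, with 346 and 333 in DMSO and 269.9 and 292 at 9 h. That call was lost without DMSO replicate 1 or either 9 h replicate, and without DMSO replicate 2 a further member fell. CASP8 was not called either after quantile normalization, by limma without a trend or with group weights, by DESeq2 or in the authors' deposited tests.

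Survival genes were split. Of 8 members of the BCL2 family and inhibitors of apoptosis, 4 rose and 2 fell (median 0.12), where 16.2% and 19.1% of all genes tested did. By limma without a trend only 2 of them rose. BCL2, the founding survival protein of the family, measured 231 and 283 in DMSO and 92.6 and 84.96 at 9 h, 34.6% of the DMSO mean (log2 −1.51 ± 0.15). BCL2L1, which encodes BCL-xL and a pro-apoptotic isoform that a gene count does not separate, went from 1705 and 1542 to 3111 and 3136 (0.95 ± 0.06). Neither pair overlapped. BIRC3, an inhibitor of apoptosis and NF-kB target, fell (−0.73 ± 0.13), from 216 and 285 to 149 and 149. XIAP, CFLAR and BCL2L2 rose by 0.32 ± 0.08, 0.31 ± 0.06 and 0.22 ± 0.06, the last not without DMSO replicate 1 or 9 h replicate 2.

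Of 9 p53 targets in DNA repair and nucleotide supply, 5 rose and 2 fell (median 0.48), against 16.2% and 19.1% over all genes tested. RRM2B, the p53-inducible subunit of ribonucleotide reductase, measured 957 and 1113 in DMSO and 3919 and 4022 at 9 h (1.94 ± 0.06). RRM2, the subunit used in S phase, moved the other way, from 9577 and 9975 to 3190.4 and 3287 (−1.59 ± 0.05). RRM2B thus reached 3.84 times its DMSO mean while RRM2 was left at 33.1% of its own. DDB2, a damage sensor of nucleotide excision repair, rose by 1.37 ± 0.06 and POLH, a translesion polymerase, by 0.93 ± 0.05, with REV3L at 0.48 ± 0.05. FANCC, of the Fanconi anaemia core complex, fell (−0.70 ± 0.08). RPS27L, a close relative of the ribosomal protein gene RPS27, went from 2487 and 2958 to 5418 and 5744 (1.04 ± 0.07). RPS27 itself measured 8922 and 7269 in DMSO and 7887 and 7927 at 9 h (−0.03 ± 0.06, adjusted p = 0.787), and its groups overlapped. It was called higher without DMSO replicate 1 (0.12) and lower without DMSO replicate 2 (−0.17). How reads shared by near-identical copies were counted is not given in the sources used here.

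Targets in metabolism, redox balance and autophagy rose in 14 of 20 cases and fell in 0 (median 0.47). CMBL, a hydrolase, went from 325 and 363 to 1434 and 1555 (2.12 ± 0.07), and TIGAR, a phosphatase that diverts sugar from glycolysis, from 706 and 911 to 2821 and 2805 (1.81 ± 0.08). ISCU, the scaffold on which iron-sulfur clusters are built, rose by 0.89 ± 0.05 and DRAM1, a lysosomal membrane protein of autophagy, by 0.70 ± 0.05. Targets that are secreted or sit at the membrane rose in 23 of 25 cases (median 0.79), and TNFRSF19, a receptor of the TNF family, was the 1 that fell, from 1177 and 1073 to 784 and 903 (−0.42 ± 0.07). TRIM22, an interferon-inducible ubiquitin ligase on this list, measured 328 and 349 in DMSO and 1631 and 1632 at 9 h (2.27 ± 0.06).

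Long RNAs linked to p53 rose in 8 of 9 cases (median 0.67). MIR34AHG, the host gene of miR-34a, measured 231 and 229 in DMSO and 519.8 and 597 at 9 h (1.27 ± 0.08), although small RNAs themselves were not measured. NEAT1, the scaffold of paraspeckles, went from 1116 and 1290.2 to 1863 and 1859.9 (0.63 ± 0.06). PVT1 rose by 0.96 ± 0.11, LINC00475 by 1.27 ± 0.17, MIR22HG by 0.67 ± 0.07 and MEG3, an imprinted RNA, by 0.54 ± 0.06. The strand setting of the counting is not stated in the labels, so reads of overlapping genes on opposite strands may not be separated.

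A match to the p53 consensus, which is a pair of adjoining decamers with a spacer of 0 to 3 bases, was sought on both strands in windows from 250 bases before to 50 bases after the start (RefSeq promoters, build GRCh38.p14). It is rare, with 5 matches among 27305 promoters (0.018%). Of the genes that rose at least 2-fold, 141 of 210 had a window and 2 of them a match (1.42%), and of those that fell at least 2-fold, 300 of 380 had a window and 0 a match. The 2 genes also hold the only matches among the 11133 windows of tested genes. They were chosen after their values were seen and are LINC01759 (LNCTAM34A in RefSeq) and PTCHD4, a patched-domain protein. LINC01759 measured 7.82 and 10.7 in DMSO and 88.6 and 79.5 at 9 h (3.06 ± 0.21), and PTCHD4 7.82 and 6.45 and 47.8 and 49.3 (2.61 ± 0.26). Both are shown for the 120 bases before the start, 5′ to 3′ on the strand of the gene, with the match in capitals. The match lies at −60 to −41 in LINC01759 and at −20 to −1 in PTCHD4.
LINC01759 (chr1:9182084-9182203, plus strand): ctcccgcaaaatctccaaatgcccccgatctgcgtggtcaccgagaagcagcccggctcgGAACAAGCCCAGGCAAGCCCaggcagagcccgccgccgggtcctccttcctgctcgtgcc
PTCHD4 (chr6:48111198-48111317, minus strand): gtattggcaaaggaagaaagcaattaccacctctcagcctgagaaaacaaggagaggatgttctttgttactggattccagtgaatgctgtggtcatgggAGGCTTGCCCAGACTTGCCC
The p53 lists other than the feedback list held 100 tested members, of which 80 had a window. No match was found in these 80, which says only that these letters are not in these windows.

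Genes that drive and carry out DNA replication and division were lower at 9 h in nearly every list. Of 18 E2F, RB and DREAM regulators, 16 fell and 0 rose (median −0.55). E2F2, an activator of S-phase genes, measured 117 and 120.3 in DMSO and 12.9 and 4.57 at 9 h, the largest fitted decrease of the named genes (−3.77 ± 0.46) and the least precise of them. E2F1, another activator, went from 1194 and 1255 to 314 and 318 (−1.95 ± 0.08) and E2F8, a repressor that is itself a cell-cycle gene, from 301 and 328 to 47.8 and 43.8 (−2.75 ± 0.17). RBL1, which encodes the RB relative p107, fell (−1.70 ± 0.07), MYBL2, which turns MuvB into an activator, (−1.52 ± 0.09), and LIN9, a MuvB subunit, (−1.42 ± 0.09). The members thus spread widely, from −3.77 to 0.23, and without DMSO replicate 1 a single member rose.

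Cyclins and their kinases fell in 16 of 20 cases (median −1.06). CCNE2, the cyclin E2 gene, measured 758 and 845 in DMSO and 57.8 and 68.5 at 9 h, 7.87% of the DMSO mean (−3.65 ± 0.13). CDC25A, a phosphatase that activates CDKs, went from 1044 and 1051 to 241 and 228 (−2.15 ± 0.09), and CCNA2, the S and G2 cyclin, from 4328 and 4275 to 1219 and 1244 (−1.80 ± 0.06). CCNF fell (−1.52 ± 0.07), WEE1, a kinase that restrains CDK1, (−1.46 ± 0.08), and CCNB1, the mitotic cyclin, (−1.08 ± 0.06). The 2 members that rose were D-type cyclins, which act at the entry to the cycle. CCND2 measured 473 and 477 in DMSO and 801 and 813 at 9 h (0.76 ± 0.07), and CCND1 41839 and 44044 and 51844 and 49258 (0.24 ± 0.05).

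Origin recognition, licensing and helicase genes fell in 22 of 23 cases, 18 of them at least 2-fold (median −1.55). CDC6, which loads the helicase, measured 2242 and 2257 in DMSO and 345 and 357 at 9 h (−2.68 ± 0.07), and ORC1, the subunit of the origin recognition complex that is regulated through the cycle, 884 and 784 and 132 and 128 (−2.67 ± 0.13). MCM10, which activates the helicase, went from 1418 and 1467 to 243 and 254 (−2.53 ± 0.09). Among the helicase subunits MCM2 fell (−2.09 ± 0.06), MCM3 (−2.09 ± 0.06), MCM4 (−2.02 ± 0.05) and MCM6 (−1.73 ± 0.06). Polymerase, fork and nucleotide genes fell in 30 of 31 cases (median −1.19). CLSPN, which encodes the checkpoint adaptor claspin, went from 2688 and 2842 to 521 and 472 (−2.48 ± 0.07). RFC3, of the clamp loader, fell (−1.96 ± 0.08), FEN1, the flap nuclease, (−1.72 ± 0.06), WDHD1 (−1.55 ± 0.07) and SLBP, which binds histone mRNAs, (−1.19 ± 0.05). The 1 member of the fork list without a call was PCNA, the sliding clamp and also a p53 target. It was chosen after its values were seen and measured 3378 and 3551 in DMSO and 3182 and 3381 at 9 h (−0.08 ± 0.05, adjusted p = 0.278).

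Recombination and Fanconi anaemia genes fell in 26 of 28 cases (median −1.47), among them EXO1 (−2.28 ± 0.10), BLM (−1.97 ± 0.09), RAD51AP1 (−1.72 ± 0.08), BRCA2 (−1.71 ± 0.08), BRCA1 (−1.54 ± 0.08) and BRIP1 (−1.50 ± 0.06). Chromatin assembly, DNA methylation and lamina genes fell in 22 of 23 cases (median −1.13). LMNB1, the lamin B1 gene, went from 3709 and 3718 to 761 and 679.7 (−2.37 ± 0.06), and LMNA, which encodes the A-type lamins, was the 1 member that rose, from 23835 and 24058 to 31715 and 32058 (0.41 ± 0.04). UHRF1, which guides maintenance methylation, measured 2812 and 2858 in DMSO and 579.5 and 575 at 9 h (−2.29 ± 0.07). CHAF1A fell (−1.85 ± 0.07), HMGB2 (−1.81 ± 0.06), TMPO (−1.46 ± 0.06) and the histone gene H2AFX (−1.33 ± 0.05).

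Mitotic genes fell without exception among those listed. All 21 mitotic kinase, checkpoint and exit genes fell (median −1.53), and so did all 45 kinetochore, spindle, kinesin and condensin genes (median −1.27), 34 of them at least 2-fold. FBXO5, which inhibits the anaphase-promoting complex, measured 2149 and 2139 in DMSO and 505 and 528 at 9 h (−2.05 ± 0.07). CDCA8, of the chromosomal passenger complex, went from 2173 and 2141 to 522 and 533 (−2.03 ± 0.07), and MKI67, the proliferation marker Ki-67, from 14630.0 and 13173 to 4531 and 4150.1 (−1.68 ± 0.05). The kinase genes PLK4 and AURKA fell (−1.92 ± 0.07 and −1.53 ± 0.06), the checkpoint genes BUB1B and CDC20 (−1.81 ± 0.06 and −1.61 ± 0.06). ASPM, KIF11, KIF23, CENPF and ANLN fell (−1.74 ± 0.05, −1.67 ± 0.06, −1.44 ± 0.05, −1.29 ± 0.05 and −1.17 ± 0.04). In bulk RNA fewer cells in S phase, G2 or mitosis and less of these RNAs per cell cannot be told apart.

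Of the 15 largest decreases, 8 were on a cell-cycle list, and these lists too were chosen with earlier results of these data known. ZNF367, a zinc finger protein, measured 687 and 781 in DMSO and 59.7 and 53.9 at 9 h (−3.67 ± 0.15), and FAM111B, a protease, 965 and 1013 and 76.7 and 84.04 (−3.61 ± 0.12). WDR76 went from 1371 and 1407 to 165 and 184 (−2.99 ± 0.10), DTL, an adaptor of a ubiquitin ligase that acts at the fork, from 2278 and 2243 to 386 and 356 (−2.60 ± 0.08), and CDCA7 from 888 and 970.1 to 171 and 176 (−2.41 ± 0.09). PAQR4 and ERCC6L, a helicase of anaphase bridges, fell (−2.40 ± 0.13 and −2.34 ± 0.09). Fitted decreases of all 15 exceeded 5-fold. Every 9 h value lay below both DMSO values, which the naming rule required and which held for 31.9% of all genes tested.

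The shares of promoters with 3 short motifs of cell-cycle genes were counted as a description, without a test. TTTGAA, the core of the cell cycle homology region bound by MuvB, was in 15.4% of all 27305 windows, in 9.87% of the 11133 windows of tested genes and in 26.3% of the 300 windows of genes that fell at least 2-fold. A site of E2F type, TTCCCGC or TTGGCGC, was in 9.33%, 14.5% and 33.3% of these windows, and CCAAT in 35.7%, 36.2% and 53.3%. Among the genes that rose at least 2-fold the shares were 11.3%, 10.6% and 32.6%. Both strands were searched. TTGGCGC can overlap CCAAT on the other strand, and TTTGAA can share its last base with it, so the motifs are not independent.

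The shares of the replication and the mitotic lists lay far apart. TTTGAA was in 39 of 56 windows of the mitotic, kinetochore and spindle genes (69.6%) and in 2 of 48 windows of the licensing, fork and nucleotide genes (4.17%). E2F-type sites were in 10 of 56 (17.9%) and 26 of 48 (54.2%). CCAAT was in 67.9% and 52.1%. As these shares show, not every listed gene that fell has TTTGAA or an E2F-type site in its window. The windows below, the 120 bases before the start on the strand of the gene, are examples that hold such motifs. They are from genes named above, all of which fell. In the first 5, from the mitotic, kinetochore and spindle lists, capitals mark TTTGAA and CCAAT or its reverse complement ATTGG.
CDCA8 (chr1:37692396-37692515, plus strand): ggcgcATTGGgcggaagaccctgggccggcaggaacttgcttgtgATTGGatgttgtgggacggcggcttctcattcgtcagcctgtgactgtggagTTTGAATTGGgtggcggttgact
BUB1B (chr15:40160949-40161068, plus strand): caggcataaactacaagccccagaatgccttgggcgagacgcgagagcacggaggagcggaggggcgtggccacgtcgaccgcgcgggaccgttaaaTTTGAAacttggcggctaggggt
CDC20 (chr1:43358861-43358980, plus strand): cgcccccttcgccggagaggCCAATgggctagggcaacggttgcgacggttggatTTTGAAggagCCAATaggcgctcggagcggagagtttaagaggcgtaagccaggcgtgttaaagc
KIF23 (chr15:69414229-69414348, plus strand): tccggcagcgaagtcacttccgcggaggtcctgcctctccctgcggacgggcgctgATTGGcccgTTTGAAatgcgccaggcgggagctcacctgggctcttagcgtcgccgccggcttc
MKI67 (chr10:128126424-128126543, minus strand): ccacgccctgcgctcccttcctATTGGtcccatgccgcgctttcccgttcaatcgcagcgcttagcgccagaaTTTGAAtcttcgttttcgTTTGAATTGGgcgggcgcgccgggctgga
In CDCA8 and MKI67 the TTTGAA runs straight into ATTGG. In the following 4 genes capitals mark the E2F-type sites TTCCCGC or TTGGCGC, or their reverse complements, and CCAAT is left in lower case. Of these, ORC1 is on the licensing list, E2F1 and E2F2 are on the list of E2F and RB regulators, and ZNF367 is on no cell-cycle list, so E2F1, E2F2 and ZNF367 are not among the genes whose shares were just given.
E2F1 (chr20:33686386-33686505, minus strand): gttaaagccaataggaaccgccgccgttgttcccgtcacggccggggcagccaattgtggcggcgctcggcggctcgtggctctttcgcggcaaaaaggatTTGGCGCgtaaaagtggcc
E2F2 (chr1:23531234-23531353, minus strand): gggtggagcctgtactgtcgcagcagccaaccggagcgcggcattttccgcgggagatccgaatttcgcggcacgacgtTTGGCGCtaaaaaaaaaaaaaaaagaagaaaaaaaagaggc
ORC1 (chr1:52404424-52404543, minus strand): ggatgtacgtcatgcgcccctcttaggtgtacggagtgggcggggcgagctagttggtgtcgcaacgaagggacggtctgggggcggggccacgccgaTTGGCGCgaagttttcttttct
ZNF367 (chr9:96418371-96418490, minus strand): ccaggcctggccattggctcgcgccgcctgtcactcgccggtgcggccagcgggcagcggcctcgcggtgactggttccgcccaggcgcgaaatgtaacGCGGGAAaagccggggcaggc
Such a match is a description of letters and does not show that a factor was bound.

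**Figure D3:**
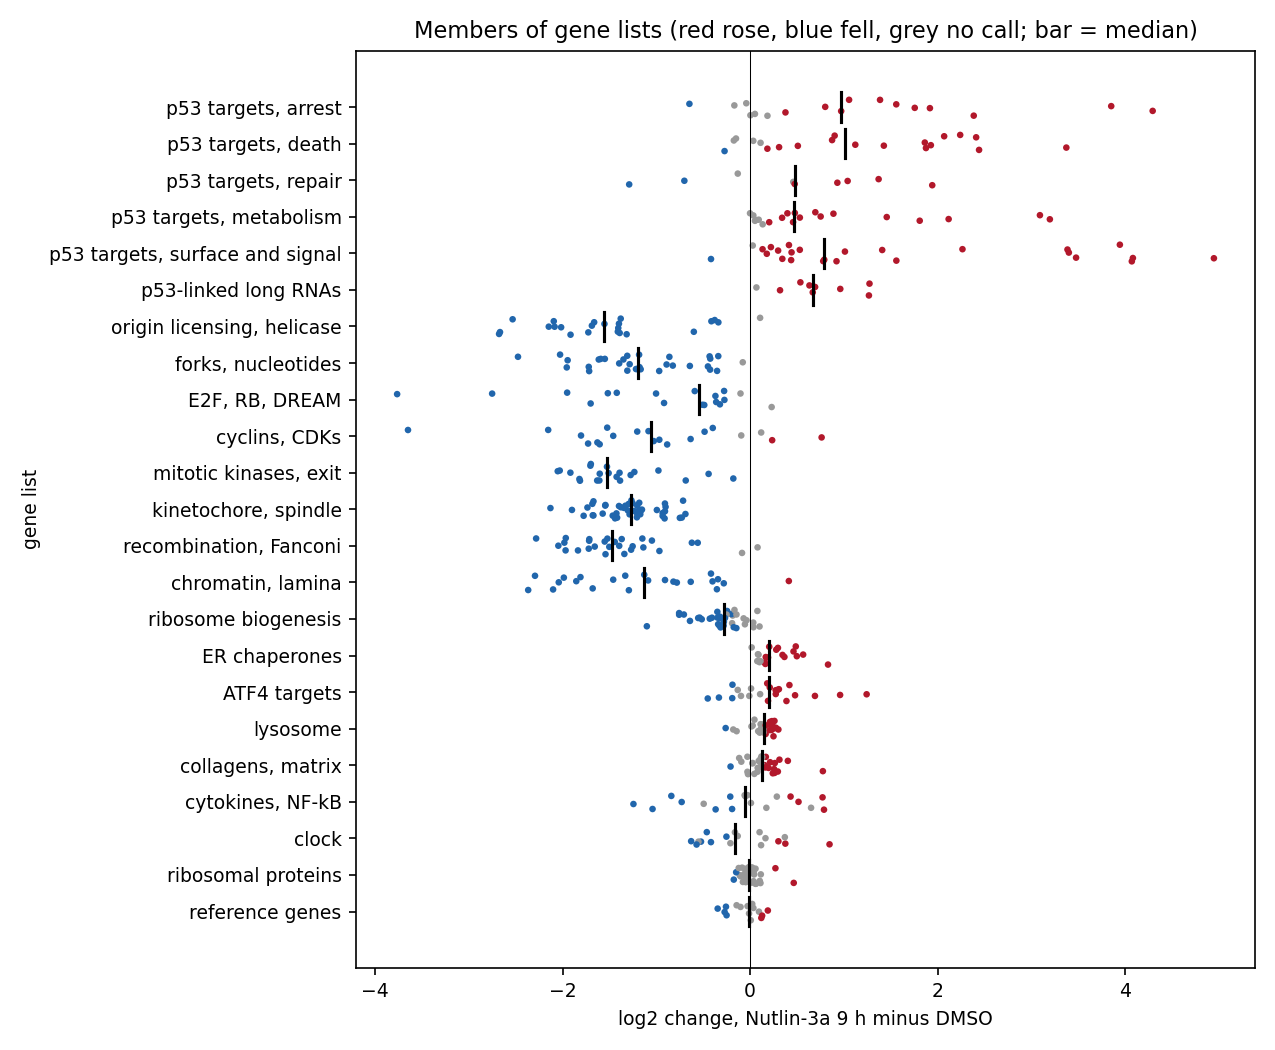
Each point is a tested member of a gene list, placed by its log2 change at 9 h against DMSO and coloured red where it rose, blue where it fell and grey where it was not called, with the list's median as a black bar. The p53 target lists have medians from 0.47 to 1.01, the replication and division lists from −1.55 to −0.55, and the ribosomal protein and reference genes −0.02 and −0.01.

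In the lists outside these programmes, median changes were smaller than in the p53 target lists and the replication and division lists. Ribosome biogenesis genes fell in 24 of 36 cases and rose in 0 (median −0.28). POLR1E, a subunit of RNA polymerase I, measured 1386 and 1339.7 in DMSO and 632 and 637 at 9 h (−1.10 ± 0.07), the only member past 2-fold. NOP56, NOLC1, DKC1 and LYAR fell (−0.76 ± 0.05, −0.71 ± 0.05, −0.64 ± 0.05 and −0.76 ± 0.07), and NCL, which encodes nucleolin, went from 25365 and 24364 to 16949.9 and 16918 (−0.55 ± 0.04). MYC, a driver of these genes, fell from 1559 and 1486 to 935 and 915 (−0.72 ± 0.06). Cytosolic ribosomal protein genes, by contrast, rose in 2 of 34 cases and fell in 2 (median −0.02), below the shares of 16.2% and 19.1% over all genes tested. RPS19 rose by 0.47 ± 0.05 and RPL10 by 0.27 ± 0.07, and RPS15 and RPL14 fell (−0.17 ± 0.05 and −0.15 ± 0.06). Counts of this list vary with the libraries used. Without DMSO replicate 2, 7 rose and 10 fell, and without DMSO replicate 1 or either 9 h replicate 0 fell. The call of RPL14 held in few settings, since it was also lost without any 6 h or 12 h library, with a replicate block (limma, adjusted p = 0.0545), with TMM or quantile scaling, and by edgeR, DESeq2 and the authors' deposited table. That of RPL10 was lost by limma without a trend, by DESeq2 and in the authors' deposited table.

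Chaperones of the endoplasmic reticulum and other genes of the unfolded protein response rose in 14 of 20 cases and fell in 0 (median 0.20). HSPA5, the chaperone BiP, measured 29628 and 30084 in DMSO and 43702 and 44691 at 9 h (0.57 ± 0.04), and HERPUD1, which takes part in degradation of misfolded proteins, 1926 and 2022 and 3576 and 3449 (0.83 ± 0.05). EDEM1, DNAJB9, HYOU1 and SEL1L rose by 0.49 ± 0.06, 0.46 ± 0.07, 0.30 ± 0.05 and 0.28 ± 0.05. ATF4 targets rose in 13 of 22 cases and fell in 4 (median 0.20), against 16.2% and 19.1% over all genes tested. DDIT4, an inhibitor of mTORC1 that p53 also activates, went from 858 and 768 to 1533 and 1629 (0.96 ± 0.06) and ATF3 from 49.8 and 50.5 to 121 and 119 (1.24 ± 0.15). NUPR1, DDIT3 and ASNS rose by 0.69 ± 0.07, 0.48 ± 0.08 and 0.31 ± 0.05, whereas the amino acid transporter gene SLC7A1 fell (−0.45 ± 0.05) and ATF5 and PHGDH (−0.33 ± 0.08 and −0.19 ± 0.05). Without 9 h replicate 2 the calls of ATF5 and PHGDH were lost and 2 members fell.

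Lysosomal genes rose in 16 of 31 cases and fell in 1, with a highest change of 0.30 (median 0.15). PSAP, which encodes prosaposin, went from 13598 and 15163 to 17672 and 17726 (0.30 ± 0.05), and CTSB, LAMP1 and TPP1 rose by 0.23 ± 0.04, 0.23 ± 0.04 and 0.28 ± 0.05. The member that fell was GLA, alpha-galactosidase, at −0.26 ± 0.07. Without either 9 h replicate 10 rose, and GLA was not called without 9 h replicate 1. Collagen and matrix genes rose in 15 of 34 cases and fell in 1 (median 0.12), counts that were 9 rising without 9 h replicate 1, 7 rising after quantile normalization and 3 falling without DMSO replicate 2. COL7A1, the collagen of anchoring fibrils, had the largest change of the list, from 3339.8 and 3465 to 5936 and 5719.6 (0.78 ± 0.05). COL5A1 and COL5A3 rose by 0.30 ± 0.04 and 0.40 ± 0.06, and LAMB1 fell (−0.21 ± 0.04). Contractile and TGF-beta response genes rose in 9 of 22 cases and fell in 2, against 16.2% and 19.1% over all genes tested. They rose in 5 without 9 h replicate 1 and fell in 6 without DMSO replicate 2 and in 1 without either 9 h replicate. LTBP2 rose by 0.42 ± 0.05 and ANKRD1, a target of YAP, by 0.46 ± 0.07, while CNN1, the smooth muscle protein calponin, fell (−0.34 ± 0.06).

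Counts of signalling and inflammatory genes were mixed. They are to be read against the 16.2% that rose and the 19.1% that fell over all genes tested. Immediate early genes rose in 6 of 26 cases and fell in 7, with 3 rising without 9 h replicate 1 and 4 falling without 9 h replicate 2. FOSL1, a subunit of AP-1, fell from 7802 and 6874 to 5132 and 4958 (−0.54 ± 0.06) and EGR1 from 1766 and 1666 to 1285 and 1323 (−0.40 ± 0.06), while the phosphatase genes DUSP1 and DUSP14 rose by 0.46 ± 0.05 and 0.38 ± 0.05 and IER5 by 0.46 ± 0.05. Of 19 cytokine, chemokine and NF-kB feedback genes, 4 rose and 7 fell. LIF, a cytokine and p53 target, measured 583 and 547 in DMSO and 978 and 973 at 9 h (0.79 ± 0.07), IL6 86.01 and 88.1 and 146 and 153 (0.77 ± 0.12), and IL11 rose by 0.52 ± 0.06. The chemokine gene CCL2 went from 697 and 697 to 354 and 427 (−0.84 ± 0.09) and CXCL8, which encodes interleukin 8, from 131 and 118 to 58.8 and 61.2 (−1.04 ± 0.16). Among 19 interferon-stimulated genes 3 rose and 3 fell, which is no more than the shares of 16.2% and 19.1% over all genes tested, and 6 rose without DMSO replicate 2 while 1 fell without 9 h replicate 1. STAT2 and IRF9 rose by 0.35 ± 0.06 and 0.41 ± 0.09, TRIM22 was the third that rose, and OAS3 and IRF1 fell (−0.87 ± 0.11 and −0.35 ± 0.09), the latter not without 9 h replicate 1.

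Hypoxia and glycolysis genes rose in 12 of 30 cases and fell in 1. ANGPTL4, a lipase inhibitor, measured 359 and 423 in DMSO and 1071 and 938 at 9 h (1.36 ± 0.08), and NDRG1 6009 and 5744 and 10011 and 10067 (0.77 ± 0.04). VEGFA and PFKFB4 rose by 0.58 ± 0.05 and 0.58 ± 0.08, and ADM, which encodes adrenomedullin, fell (−0.34 ± 0.05), with a further member falling without DMSO replicate 2. Core clock genes rose in 3 of 17 cases and fell in 6, with 5 rising without DMSO replicate 1. Over all genes tested the shares that rose and fell were 16.2% and 19.1%. BHLHE40, a repressor of the clock, rose from 2111 and 1873 to 3629.6 and 3527 (0.85 ± 0.06), while PER3 and ARNTL2 fell (−0.63 ± 0.09 and −0.46 ± 0.06). Genes of cholesterol synthesis and uptake rose in 3 of 24 cases and fell in 4, below the shares of 16.2% and 19.1% over all genes tested, with 6 rising without either DMSO replicate. STARD4, a sterol carrier, rose by 0.75 ± 0.07.

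Fibroblast markers were all tested, at levels that lay far apart. COL1A1 measured 480153 and 455213 in DMSO and 561559 and 559486 at 9 h, and S100A4 259 and 286 in DMSO and 367 and 342 at 9 h. The summed level of the 20 fibroblast markers was 964910 and 956796 in DMSO and 1096670 and 1107930 at 9 h, most of it from COL1A1, COL1A2 and VIM. Of the 20 markers, 7 rose and 4 fell (median 0.01), where 16.2% and 19.1% of all genes tested did. PDGFRA, a growth factor receptor, went from 5365 and 5179 to 3953 and 3889.8 (−0.43 ± 0.05) and TWIST1, a mesenchymal transcription factor, from 664 and 572 to 391 and 364 (−0.71 ± 0.09), and COL1A1 and COL1A2 rose by 0.26 ± 0.05 and 0.26 ± 0.05. Without either 9 h replicate 4 rose. After quantile normalization neither COL1A1 nor COL1A2 was called.

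Of markers of other cell types, some were near the value of 3 reads and others were not. PTPRC, the leukocyte antigen CD45, measured 1.95 and 5.37 in DMSO and 4.98 and 0.91 at 9 h, CDH5, of endothelial junctions, 1.95 and 0 and 2.99 and 2.74, and CDH1, the epithelial cadherin, 2.93 and 2.15 and 0.996 and 2.74. In the same lists EPCAM, an epithelial adhesion protein, measured 19.5 and 24.7 in DMSO and 28.9 and 23.8 at 9 h, VWF, the von Willebrand factor of endothelium, 25.4 and 27.9 and 33.9 and 31.97, TIE1, an endothelial receptor, 59.6 and 46.2 and 65.7 and 62.1, and CSF1R, a macrophage receptor, 22.5 and 9.67 and 23.9 and 22.8. These 7 were chosen after their values were seen. Of 15 epithelial markers 10 had a row and 7 were tested, of which 2 rose and 0 fell, with a summed level of 3204 and 3125 in DMSO and 3412 and 3390.1 at 9 h, most of it from KRT18. Of 11 endothelial markers 5 were tested and 1 fell, TEK, (−0.32 ± 0.06), with sums of 2145 and 2027 and of 1761 and 1647. Of 12 immune markers 2 were tested and 1 rose, CD68, a lysosomal protein, by 0.23 ± 0.08, with sums of 917 and 746 and of 1006 and 945. Of 12 smooth muscle and pericyte markers 3 rose and 2 fell, and CSPG4, a proteoglycan, rose by 0.71 ± 0.04. The shares that rose and fell over all genes tested were 16.2% and 19.1%. The call of CD68 was lost without DMSO replicate 2 or any 9 h or 12 h library, 0 epithelial markers rose without 9 h replicate 1 and 1 without any DMSO or 12 h library or 9 h replicate 2, and 2 endothelial and 5 smooth muscle markers fell without DMSO replicate 2. By DESeq2 and in the authors' deposited tests CD68 was not called and 0 epithelial markers rose. The part of such cells in the changes above was not tested. Among 15 reference genes 3 rose and 4 fell, against 16.2% and 19.1% over all genes tested, and none passed 0.35. HPRT1 fell (−0.35 ± 0.08) and SDHA rose by 0.19 ± 0.05. Without 9 h replicate 2, 0 of the reference genes rose and 2 fell, without 9 h replicate 1 2 fell and HPRT1 was not called, and without any 6 h or 12 h library 1 rose.

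The 9 h libraries were also set against the libraries at 6 and 12 h, in differences that use no DMSO library other than in the shared estimate of the spread. At 9 h, 1199 genes (8.52%) were higher and 1393 (9.9%) lower than at 6 h, and at 12 h, 152 (1.08%) were higher and 411 (2.92%) lower than at 9 h. These counts depend on the libraries that set the spread. Without DMSO replicate 1 or 2, 1880.0 and 1894 genes were higher at 9 h than at 6 h, and without any 6 h or 9 h library 579 to 697 were higher and 761 to 888 lower. For 12 h against 9 h the counts were 438 and 819 without DMSO replicate 1, 446 and 825 without DMSO replicate 2, and 42 to 58 and 213 to 237 without any 9 h or 12 h library. Levels of MDM2 differed by 0.07 from 6 to 9 h (adjusted p = 0.477) and by 0.02 from 9 to 12 h (adjusted p = 0.923). CDKN1A was 0.38 ± 0.04 higher at 9 h than at 6 h. SULF2 measured 92.6 and 93.2 at 6 h, 287 and 291 at 9 h and 386 and 377 at 12 h, so it was 1.63 ± 0.14 higher at 9 h than at 6 h, and CYFIP2 was 1.34 ± 0.09 higher.

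Other genes were lower at 9 h than at 6 h. GDF15 measured 4587 and 4450.0 at 6 h and 3247 and 3370.0 at 9 h, a difference of −0.45 ± 0.06, and BBC3 638 and 649 and 488 and 503 (−0.38 ± 0.09). ANGPTL4 went from 2213 and 2249.5 to 1071 and 938 (−1.15 ± 0.08), CAVIN4, a caveolar protein of muscle, from 1037 and 1030.1 to 418 and 456 (−1.24 ± 0.08), and SYT16 from 128.8 and 124 to 44.8 and 41.1 (−1.54 ± 0.21). PDE7B, a phosphodiesterase, was low at 6 h, with 110.1 and 96.1, and measured 338 and 361 at 9 h, against 353 and 332 in DMSO, so that it was 1.75 ± 0.10 higher at 9 h than at 6 h and not called against DMSO (adjusted p = 0.86). NR4A2, a nuclear receptor, was likewise lowest at 6 h, with 128 and 124 in DMSO, 30.02 and 42.3 at 6 h, 113 and 107 at 9 h and 199.7 and 224 at 12 h. SLC2A12, a sugar transporter, measured 60.04 and 72.1 at 6 h and 129.4 and 144 at 9 h (1.04 ± 0.15).

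Division genes were lower at each later time. Kinetochore and spindle genes were lower at 9 h than at 6 h in 42 of 45 cases and lower at 12 h than at 9 h in 42, with median differences of −0.61 and −0.58. Mitotic kinase and exit genes were lower in 20 and 19 of 21 (−0.68 and −0.61). Licensing and helicase genes were lower in 18 and 16 of 23 (−0.50 and −0.40), and recombination genes in 22 and 12 of 28 (−0.45 and −0.34). CCNE2 measured 186 and 169 at 6 h, 57.8 and 68.5 at 9 h and 55.7 and 67.6 at 12 h, so it differed by −1.48 ± 0.13 from 6 to 9 h and by −0.04 ± 0.13 from 9 to 12 h (adjusted p = 0.948). MKI67 measured 7686 and 7679, 4531 and 4150.1 and 2449 and 2392 at these times and differed by −0.82 ± 0.05 and −0.84 ± 0.05. CENPA, the centromeric histone, differed by −0.89 ± 0.11 from 9 to 12 h, HJURP, its chaperone, by −0.88 ± 0.07, and CDCA8 by −0.84 ± 0.07. Chaperone genes of the endoplasmic reticulum were higher at 9 h than at 6 h in 13 of 20 cases and ATF4 targets lower in 15 of 22. CSGALNACT1, an enzyme of chondroitin synthesis, was 0.73 ± 0.07 higher at 12 h than at 9 h, with 642 and 647 and 1032 and 1108.

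**Figure D4:**
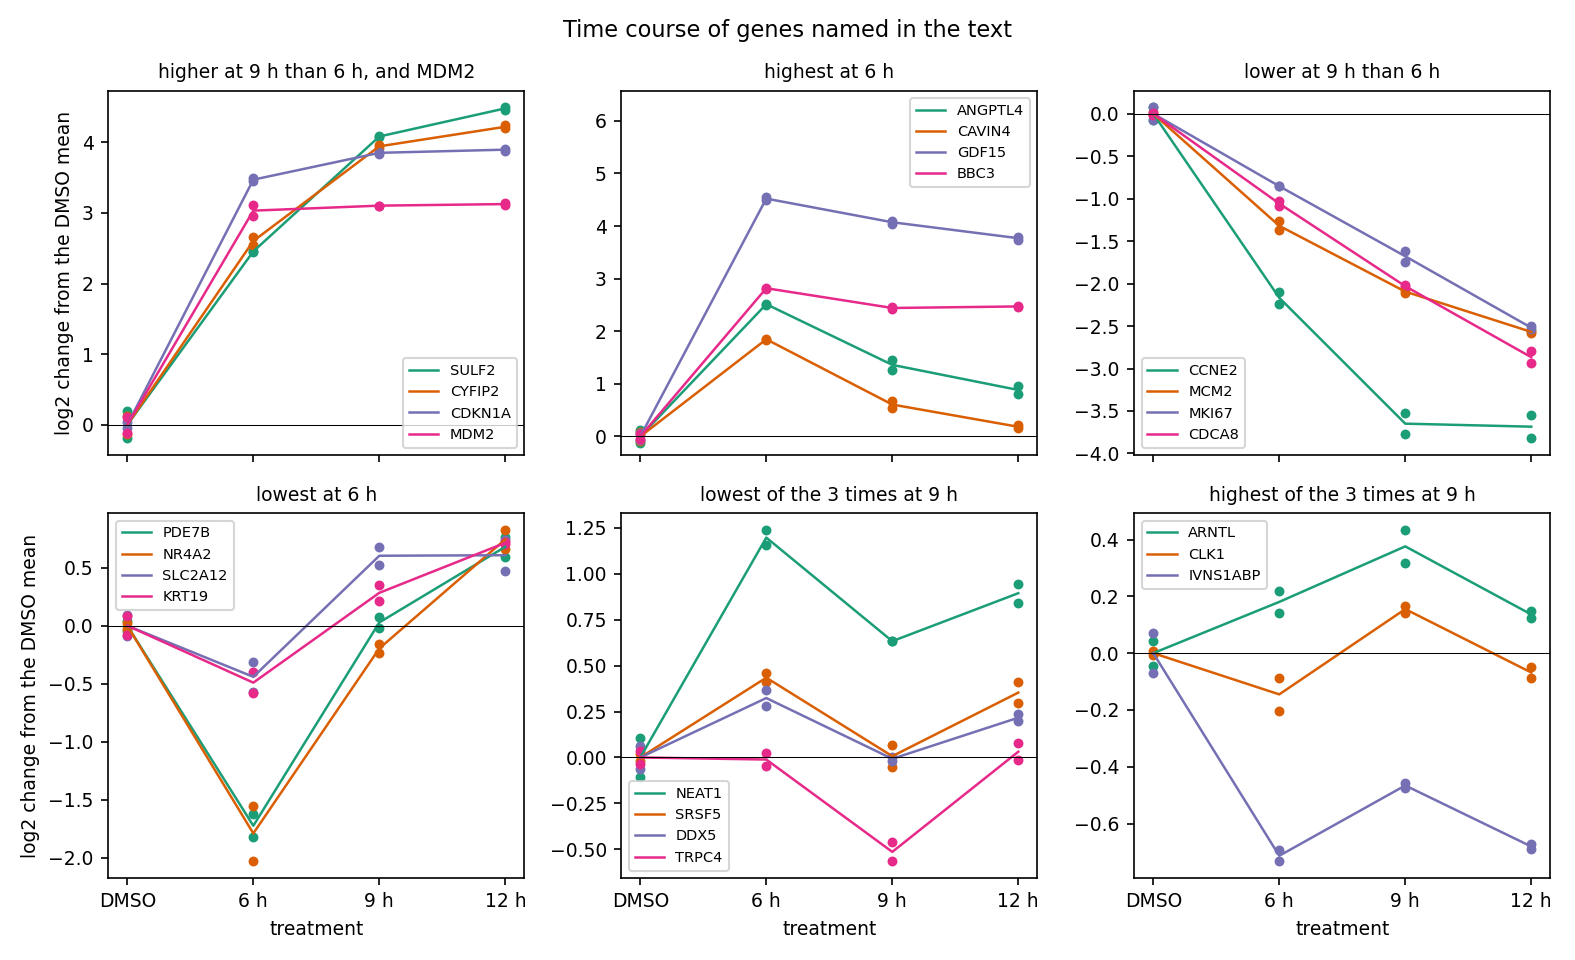
Log2 change from the DMSO mean in each library (points) and group mean (lines) for DMSO and for 6, 9 and 12 h of Nutlin-3a, in 6 panels of 3 or 4 genes with their own vertical scales. MDM2 is level from 6 h on, CCNE2 is level from 9 h on, MKI67 and CDCA8 differ at each step, and PDE7B and NR4A2 are lowest at 6 h.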

How the data were processed

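PolyA RNA of 8 libraries in 4 groups of 2 was sequenced after directional library preparation, per the labels' protocols. STAR, DESeq2 and build hg19 are named, without versions, per the submitters' processing notes, and neither counter nor annotation is given in the sources used here. Gene counts were deposited by the authors after division by a size factor of each library, a normalized signal, which came out as whole reads for 100% of values within a tolerance of 1e-06. The authors also deposited DESeq2 results for each time, with log2 fold changes, a Wald score and p-values, used only as an alternative. Entries for reads outside single genes (28.2 to 29.1% of each library) were left out.

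Gene reads were 21.9 to 33.6 M (1e6) per library. PCR copies carried no mark, so a floor of 3 reads covers counting error alone. Genes that reached 10 in 2 or more of the 8 libraries were tested with limma 3.58.1 (R 4.3.3), with an intensity trend, on log2(value + 1), in a single fit of the 4 groups with 4 residual and 15.5 prior degrees of freedom. P-values were adjusted over all 14074 genes by Benjamini and Hochberg, threshold 0.05. With 2 against 2 libraries the smallest exact permutation p is 0.333. The scripts were tested on simulated data. Alternatives were other pseudocounts (0.5 and 5), filters, TMM and quantile scaling, limma without a trend or with group weights, only the 2 groups compared, edgeR 4.0.16 and DESeq2 1.42.0 on recovered reads, the deposited tests, a replicate block and each library left out.

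Genes were named by rule: the 15 largest called changes each way at 9 h and the 6 largest each way between times (mean of at least 50, groups that do not overlap), and from 35 lists up to 6 members with the smallest p, up to 3 called against the majority and, where few were called, up to 3 uncalled members with the highest mean, besides MDM2, CDKN1A, RPS27 and RPS27L. Some genes the rule takes are not reported here. The lists hold 777 symbols, 757 in the table and 725 tested. The members and lists were chosen with earlier results of these data known, so no count is independent support. Promoter windows are from RefSeq, build GRCh38.p14; no coordinates of hg19 were used.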

Additional observations from a re-analysis of the deposited data

Results flagged for a closer look

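Each gene here was flagged because its level at 9 h differed from that at a neighbouring time in a way the other comparison did not share, by the test of the difference itself in the limma fit over all genes. The genes were taken by this pattern, after their values were seen, and DMSO served both comparisons where DMSO is named.

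In 8 genes the 9 h libraries differed from the 6 h and from the 12 h libraries in opposite senses. For several of them the limma call from 9 to 12 h was close to the threshold. Its adjusted p was 0.0422 for TM4SF1, 0.0414 for CLK1, 0.0413 for ARNTL and 0.0346 for IVNS1ABP. It was 0.0260 for TRPC4, 0.0222 for NEAT1, 0.00796 for DDX5 and 0.000657 for SRSF5. From 6 to 9 h it was 0.0421 for ARNTL. Over all genes, 152 were higher and 411 lower at 12 h than at 9 h. Without a trend, limma gave 30 and 144. ARNTL, a core clock factor, was 0.20 higher than at 6 h and then −0.24 at 12 h against 9 h. CLK1, a kinase of splicing factors, gave 0.30 and −0.22, and IVNS1ABP 0.25 and −0.21. The reverse was seen in NEAT1 with −0.56 and 0.26, SRSF5, a splicing factor, with −0.43 and 0.35, DDX5, an RNA helicase, with −0.33 and 0.22, TM4SF1 with −0.69 and 0.22 and TRPC4, a cation channel, with −0.50 and 0.55. NEAT1 measured 2833 and 2673 at 6 h, 1863 and 1859.9 at 9 h and 2151 and 2314 at 12 h, and SRSF5 2409 and 2334, 1689.8 and 1839.8 and 2153 and 2333.

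In 67 genes the calls against DMSO were opposite at 6 and 9 h, with a called difference, a mean of at least 50 and no overlap between those times. The 9 h level was the higher in 40 and the lower in 27. The largest upward differences from 6 to 9 h were those of SLC2A12 (1.04), MBD5 (0.81), KRT19 (0.77), MXD4 (0.74), ARRB1 (0.73) and PPM1K (0.71). The largest downward ones were those of HES4 (−0.89), H1FX (−0.79), NEDD9 (−0.76), SLC38A1 (−0.74), CEBPG (−0.73) and LOC730101 (−0.71).

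In 10 genes the calls against DMSO were opposite at 9 and 12 h, with a called difference. From 9 to 12 h CEMIP differed by −0.83, ANO1 by −0.81, ANKRD1 by −0.74, SLC7A5 by −0.44 and SCD by −0.36, while ABCC9 differed by 0.52, AVPI1 by 0.48, SLC4A4 by 0.42, TCF21 by 0.39 and HERC4 by 0.32.

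Many of the 9 h calls against DMSO behind these patterns were lost when 1 library was left out. Those of ABCC9, ARRB1, AVPI1, HERC4, KRT19, SCD and TCF21 were lost without either 9 h replicate, those of ANO1, CEBPG, PPM1K, SLC7A5 and TRPC4 without 9 h replicate 1, and those of HES4, SLC2A12 and SLC4A4 without 9 h replicate 2. Those of ABCC9, ARRB1, AVPI1, CEBPG, HERC4, HES4, SCD and SLC4A4 were also lost without DMSO replicate 2, and those of KRT19, PPM1K and TCF21 without DMSO replicate 1. In the authors' deposited tests ABCC9, ARRB1, AVPI1, HERC4, KRT19, SCD, TCF21 and TRPC4 were not called at 9 h against DMSO. The calls of AVPI1, HERC4 and TCF21 were also lost with TMM or quantile scaling, by edgeR and by DESeq2.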

How the results depend on the processing

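The counts at 9 h against DMSO kept their side of 1.5 times the main values (2273 rose, 2691 fell) under every alternative but leaving out a 9 h library, with ranges of 1419 to 2640.0 and 2002 to 2866 over single libraries left out. edgeR gave 2547 and 2558, DESeq2 1633 and 2191, the deposited tests 1587 and 2180.0, TMM scaling 2552 and 2489, quantile normalization 2770.0 and 2280.0. At least 2-fold, 118 genes rose with a mean of at least 50 required, which leaves fewer genes, and 180.0 to 245 rose and 373 to 387 fell with a library left out. Fewer genes were higher at 9 h than at 6 h by limma without a trend (597) and by DESeq2 (786), and 740.0 were lower without a trend, with ranges of 579 to 1894 and 761 to 2042 over libraries left out. For 12 h against 9 h, limma without a trend gave 30 and 144, only the 2 groups compared 529 and 858, group weights 428 and 812, and libraries left out 42 to 446 and 213 to 825. Except where fewer genes or samples enter, the cause was not tested.

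Of 251 genes named, 235 were called at 9 h, and 199 of these kept their call under every alternative run. Directions turned for genes that were not called in the main fit. CSGALNACT1 gave 0.012 with TMM scaling and by edgeR and 0.065 after quantile normalization, and −0.033 to 0.021 with a library left out. DDX5 gave 0.011 with TMM scaling and 0.0099 by edgeR, and −0.071 to 0.057 with a library left out. With a library left out PDE7B ranged from −0.020 to 0.076, SRSF5 from −0.054 to 0.068, HSPE1 from −0.17 to 0.48, RPS27 from −0.17 to 0.12 and TUBB from −0.63 to 0.28. RPS27 and TUBB were each called without either DMSO replicate, in opposite directions. For TUBB the change was −0.63 without DMSO replicate 1 and 0.28 without DMSO replicate 2.

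Replicate numbers were not taken to pair the samples, since the correlation of same-numbered libraries' deviations over 9568 genes was not above 0.1 in every pair of groups. It was 0.107 for DMSO and 9 h, 0.156 for DMSO and 12 h, 0.133 for 9 and 12 h, 0.0168 for 6 and 9 h, −0.0447 for 6 and 12 h and −0.229 for DMSO and 6 h. A replicate block gave 2277 rising and 2674 falling genes, and among the genes named the call of RPL14 was lost with it (adjusted p = 0.0545). The wide DMSO pair and 2 libraries per group limit small changes, and genes with a mean under 50 had a median SE of 0.353 against 0.0472 at means of 5000 or more.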

Other observations

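Several genes on none of the lists rose from levels near the value of 3 reads. They were chosen after their values were seen. KRT17, a keratin of basal and stressed epithelium, measured 1.95 and 2.15 in DMSO and 43.8 and 45.7 at 9 h, and CLCA2 0.98 and 1.07 and 16.9 and 21.9. NECTIN4, an adhesion protein, measured 5.86 and 3.22 and 44.8 and 51.2, GREB1 4.89 and 3.22 and 36.8 and 52.98, and ABCA12, a lipid transporter of skin, 4.89 and 10.7 and 51.8 and 53.9. Fold changes of these genes depend on the pseudocount. Growth and guidance factors at higher levels also rose. PDGFA went from 229.7 and 179 to 589 and 586 (1.53 ± 0.09), EFNB1, an ephrin, from 777 and 712 to 2217 and 2257 (1.59 ± 0.06), EPHB3, an ephrin receptor, from 104 and 107 to 252 and 259 (1.27 ± 0.12), and NRG1, neuregulin, from 595 and 602 to 1311 and 1276 (1.11 ± 0.06).

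Among falling genes outside the lists, HJURP measured 2329 and 2141 in DMSO and 461 and 437 at 9 h (−2.31 ± 0.07), ATAD2 4638 and 4739 and 1069 and 996 (−2.18 ± 0.06), NEIL3, a glycosylase of DNA repair, 537 and 553 and 107 and 132 (−2.19 ± 0.12), and MSH6 3628 and 3643 and 1327 and 1299.9 (−1.47 ± 0.05). FKBP5, a cochaperone of steroid receptors, went from 1025 and 1057 to 385 and 428 (−1.36 ± 0.08) and SNHG1, a host gene of small nucleolar RNAs, from 1084 and 1038 to 483 and 523 (−1.08 ± 0.07).

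Of 5 tested genes whose symbol starts with APOBEC3, which encode cytidine deaminases that restrict viruses and are near copies of each other, 4 rose and 1 fell. APOBEC3C went from 890.4 and 857 to 1696 and 1711 (0.96 ± 0.06) and APOBEC3B from 478 and 456 to 353 and 359 (−0.39 ± 0.08). Of 12 tested TNFRSF genes 7 rose (58.3%) and 3 fell (25%), and TNFRSF10B, TNFRSF10C and TNFRSF19 among them are also on p53 lists. Of 35 genes whose symbol starts with KIF and a digit, 15 fell (42.9%), 12 of them at least 2-fold, and 4 rose, a family that overlaps the spindle list. Of 440 ZNF genes 11.6% rose and 16.8% fell, below the shares of 16.2% and 19.1% over all genes. The APOBEC3, TNFRSF, KIF and ZNF families were chosen after their values were seen. Of other families counted by symbol, HIST had 2 of 21 rising and 0 falling, SNORD or SNORA 2 and 4 of 59, and KRT 3 and 0 of 11.

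In 12 genes with a mean of at least 200, the 2 DMSO libraries differed more than 1.5-fold, against 1 gene in the 9 h pair. TUBB, a tubulin, measured 507 and 952 in DMSO and 599 and 629 at 9 h, H2AFZ, a histone variant, 8585 and 13586 and 8097 and 8266, HSPE1 470.1 and 737 and 665 and 646, and SNORD20, a short nucleolar RNA gene, 65.5 and 228 and 319 and 193. H2AFZ (−0.40) and SNORD20 (1.01) were still called at 9 h, the latter with groups that overlap, while TUBB and HSPE1 were not. Neither H2AFZ nor SNORD20 was called by DESeq2 or in the deposited tests. ACER2, CLEC2D, PIGF, RPL39 and SNORA104 were also called despite wide DMSO pairs.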
